A study of Homo sapiens and Mus musculus with 15 samples.

Results

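Metallothionein genes were followed through 3 datasets of the retinal pigment epithelium (RPE), the pigmented cell layer behind the photoreceptors. The members were chosen by name: MT2A, MT1E, MT1F, MT1G, MT1M and MT1X, 6 of the 61071 rows of a table of the human RPE cell line ARPE-19, and Mt1, Mt2 and Mt3, which are 3 of 56832 rows in a table of mouse eye cups and 3 of 32285 genes in single-cell RNA sequencing (scRNA-seq) of mouse RPE. All 9 members were found in their tables. Metallothioneins are small, cysteine-rich proteins that bind zinc and copper, buffer the free metal in the cell and scavenge oxidants. Their genes are classically switched on by zinc through the transcription factor MTF1, which binds metal response elements in their promoters, and they also respond to glucocorticoids, heat and oxidative stress. The RPE is a zinc-rich tissue, and MT3 is the form best known from the brain.

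The ARPE-19 libraries came from 3 groups, with 3 libraries in each group. These were cells overexpressing tagged YAP (YAP-HA) on a soft gel, and cells with control vectors on a soft gel or on plastic. The library titles give the stiffness, 1.5 kPa, for control cells on gel and not for YAP-HA cells. YAP is a transcriptional coactivator of the Hippo pathway that responds to the stiffness of the substrate. The eye cups, left after removal of the anterior segment and retina, came from old C57BL/6J mice, with 2 libraries from mice given TRULI and 2 from mice without it. TRULI blocks LATS, the Hippo kinases that hold YAP back. For scRNA-seq, 1 library was made from C57BL/6J mice of 24 months (old) and 1 from mice of 3 months (young). The condition field of the young library calls it old, and it was placed by its title and age. Nothing given says that replicates were separate cultures, so the p-values measure the spread between these libraries, which may be technical. The age of the TRULI-treated and control mice and the number of mice behind each scRNA-seq library were not given in the sources used here.

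In the GENCODE v29 annotation of GRCh38, the 6 human members lie within 76.0 kb of the long arm of chromosome 16, in a cluster of 16 genes of which 11 are protein coding and 5 are pseudogenes. MT2A is at chr16:56608199-56609497, MT1E at chr16:56625475-56627112, MT1M at chr16:56632233-56633986, MT1F at chr16:56657694-56660698, MT1G at chr16:56666731-56668065 and MT1X at chr16:56682424-56684196. All have 3 exons, and all but MT1G, which is on the minus strand, are on the plus strand. Reads of such related genes can be split between copies by the counting. No stretch of 50 bases of the MT1X transcript occurred in a transcript of another metallothionein gene (0.0%). The share was 2.2% for MT2A, 3.6% for MT1F, 7.1% for MT1M, 10.6% for MT1E and 14.2% for MT1G, and it was 0.0% for each of them at 100 bases. The levels of MT1M, MT1E and MT1G are therefore the least certain in this respect.

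The promoter sequences show what the members share in sequence. RefSeq promoters (GRCh38.p14) were at hand for 2 of the 6 members, MT2A and MT1X, and for their neighbours in the cluster MT1H, MT1B and MT4. MT1H and MT4 were listed at 0 TPM in all 9 ARPE-19 libraries, and MT1B reached at most 0.3 TPM. The sequences of MT1B and MT4 are not printed. Capitals mark the metal response element core, searched on both strands as TGCACNC or TGCGCNC, a pattern found in 24.8% of the 35116 promoters of 250 bases. MT1X is shown from 250 to 47 bases before its RefSeq start (chr16:56682220-56682423, plus strand), which is as far as the first GENCODE exon. For MT2A, whose longest GENCODE transcript begins further upstream, only the closest pair of matches is shown (chr16:56608429-56608453, plus strand), and MT1H is shown over its whole 250 bases (chr16:56669564-56669813, plus strand).
MT2A: ggTGCGCCCggcccagTGCGCGCgg
MT1X: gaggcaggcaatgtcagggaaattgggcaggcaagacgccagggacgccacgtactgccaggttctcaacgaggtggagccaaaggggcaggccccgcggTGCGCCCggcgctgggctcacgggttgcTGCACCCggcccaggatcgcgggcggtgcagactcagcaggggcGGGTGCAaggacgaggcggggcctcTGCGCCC
MT1H: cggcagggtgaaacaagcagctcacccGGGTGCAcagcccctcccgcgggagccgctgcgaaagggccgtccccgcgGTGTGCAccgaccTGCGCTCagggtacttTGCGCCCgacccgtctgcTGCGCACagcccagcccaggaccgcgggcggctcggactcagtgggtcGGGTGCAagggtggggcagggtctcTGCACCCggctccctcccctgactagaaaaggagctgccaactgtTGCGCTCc
Over 250 bases, MT2A held 7 matches, MT1X 4, MT1H 8, and MT1B and MT4 held 3 each. Of all promoters, 0.37% held 4 or more and 0.0513% held 6 or more. MT2A, MT1X and MT1B each also held 1 match to the antioxidant response element TGACNNNGC (10.9% of promoters), and MT1H and MT4 held 0. No match to the TEAD motif GGAATG (11.9% of promoters) or to the glucocorticoid receptor motif TGTTCT (12.4%) was in the window of any of the 5 genes. A match is a description of the letters and not a bound site. MT2A, the most abundant form, and MT1H, listed at 0, thus held similar numbers of core matches. MT1B, at most at 0.3 TPM, and MT4, listed at 0, held fewer.

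Levels in ARPE-19 cells are given in TPM, transcripts scaled for length and to a fixed total, so that genes can be compared. MT2A was the dominant metallothionein, with 90.3% to 92.8% of the summed TPM of the family and rank 12 to 19 among all genes of a library. The order of levels was MT2A, MT1E, MT1X, MT1F and MT1M in all 9 libraries, and the ranges of neighbouring genes did not overlap. MT1G was above 0 in 3 of 9 libraries with at most 0.53 TPM and was not tested. MT1B was above 0 in 2 libraries with at most 0.3 TPM, and MT1A, MT1H, MT1L, MT3 and MT4 were listed at 0 in every library. The family as a whole made up 0.576% to 0.795% of all TPM, with 6223 to 6666 summed TPM in YAP-HA cells on gel, 6657 to 7673 in control cells on gel and 5586 to 6273 in control cells on plastic. Of the markers that identify RPE, RPE65 and TTR were listed at 0 in all 9 libraries and TYR reached at most 0.18 TPM. RLBP1 was at 0.57 to 4.56 TPM and BEST1 at 0.63 to 2.4 TPM. MITF differed by group, at 9.93 to 11.53 TPM in YAP-HA cells, 3.2 to 3.96 TPM in control cells on gel and 12.59 to 13.93 TPM on plastic. The epithelial keratins KRT8 and KRT18 were at 672 to 951 and 558 to 869 TPM. YAP1 was at 2209 to 2469 TPM in YAP-HA cells, against 55.9 to 77.3 TPM in control cells on gel and 115 to 126 TPM on plastic. Genes followed as a check of YAP activity went both ways between YAP-HA and control cells on gel. AMOTL2 was at 106 to 117 against 43.75 to 54.5 TPM, and CCN1 at 941 to 993 against 816 to 842 TPM. CCN2 was at 171 to 197 against 147 to 156 TPM, with 456 to 476 TPM on plastic. ANKRD1 was lower in YAP-HA cells, at 98.1 to 106 against 168 to 183 TPM.

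**Figure D1:**
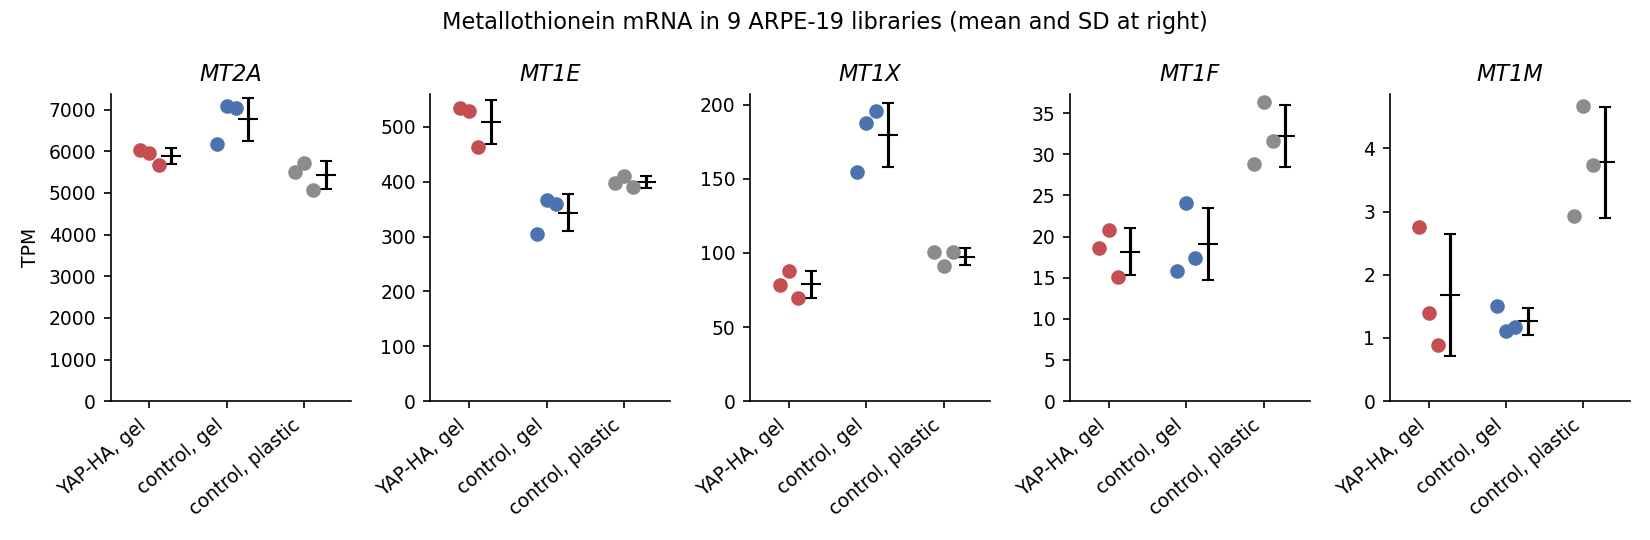
TPM (y axis, linear, from 0) of 5 metallothioneins in the 9 ARPE-19 libraries, 1 point per library, with YAP-HA cells on gel, control cells on gel and control cells on plastic from left to right and the mean and SD beside each group (n = 3). MT1X is highest in control cells on gel (155 to 195 TPM), MT1E is highest in YAP-HA cells (463 to 534 TPM), and MT1F and MT1M are highest on plastic.

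The soft gel was compared with plastic to ask what a change of stiffness does to control cells. On gel, MT2A and MT1X rose while MT1E, MT1F and MT1M fell, so that the family did not move as a unit. MT1X had 155, 188 and 195 TPM on gel, against 101, 91.2 and 101 TPM on plastic. All 3 gel libraries lay above all 3 plastic libraries, with means of 179 ± 21.6 and 97.5 ± 5.48 TPM (SD, n = 3 each), a log2 change of 0.87 (SE 0.10, limma adjusted p 0.00015). How many of all genes separated 3 libraries from 3 was not counted in any ARPE-19 comparison. MT2A, the most abundant form, had 6180.2, 7093 and 7032 TPM on gel, against 5506, 5730.0 and 5059.95 TPM on plastic. Its gel libraries were also all higher, by a log2 change of 0.32 (SE 0.070, limma adjusted p 0.0040), a call lost without the filter on low TPM (adjusted p 0.051).

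MT1F and MT1M, the least abundant of the tested forms, went the other way. MT1F had 15.8, 24.1 and 17.4 TPM on gel, against 28.8, 36.3 and 31.6 TPM on plastic, and its log2 change was -0.74 (SE 0.16, limma adjusted p 0.0037). MT1M had 1.51, 1.11 and 1.18 TPM on gel, against 2.93, 4.67 and 3.73 TPM on plastic, a log2 change of -1.06 (SE 0.23, limma adjusted p 0.0041). At such low TPM the added pseudocount of 1 makes the fold of MT1M smaller than that of its raw values. MT1E had 305, 367 and 359.8 TPM on gel, against 398, 410.4 and 390.3 TPM on plastic. Its libraries did not overlap, but its log2 change of -0.22 (limma adjusted p 0.043) was small and passed in only 4 of 12 alternatives. The adjusted p of MT1E was 0.053 to 0.11 without plastic replicate 1, 2 or 3 or gel replicate 1 or 3, and 0.44 after each library was centred on its median.

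These 5 calls of 5 tested members stand against a background in which 50.5% of all 14606 genes tested were called in this comparison, 22.6% higher and 27.9% lower. MT1X ranked above 91.7% of genes by the size of its change, MT1M above 95.4%, MT1F above 87.7%, MT2A above 52.3% and MT1E above 38.2%. Centring the libraries added 0.11 to every log2 change, giving 0.98 for MT1X and 0.43 for MT2A, and moved the share of calls that were higher to 58.1%, against 44.8% with TPM as deposited. The fall of MT1F and MT1M kept its sign and its call after centring, at -0.63 and -0.95.

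Ratios within a library do not depend on such scaling. MT1E over MT1X was 1.97, 1.95 and 1.84 on gel, against 3.95, 4.50 and 3.88 on plastic. MT2A over MT1X was 39.9, 37.8 and 36.0 on gel, against 54.6, 62.8 and 50.3 on plastic. Neither ratio overlapped between the groups, and each had an exact two-sided permutation p of 0.1, the smallest that 3 libraries against 3 allow. For MT1E over MT1X the separation follows from both genes moving in opposite directions without overlap, so it is no separate evidence. The ratios were not among the planned comparisons, and how many ratios of other genes would separate the groups was not counted. MT1X was thus higher relative to both of its more abundant relatives on the gel.

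Among the genes that surround metallothioneins in metal handling, MTF1 itself, the zinc sensor, was at 4.05 ± 0.775 TPM on gel and 5.08 ± 0.459 TPM on plastic (SD, n = 3 each), a log2 change of -0.28 that did not pass (limma adjusted p 0.12). SLC30A1, the plasma membrane zinc exporter and a classical MTF1 target, rose by 0.27 on the log2 scale (limma adjusted p 0.036), and SLC30A5, which loads zinc into the early secretory pathway, rose by 0.55. These were the 2 of 6 tested zinc exporters that rose, and 0 fell, with a list median of -0.06 beside a median of -0.04 over all genes. Of 11 zinc importers tested 5 rose and 4 fell, led by SLC39A8 (0.51), SLC39A10 (-0.49) and SLC39A6 (-0.48). Of 11 copper genes 7 rose and 3 fell, among them SCO2 (1.09) and COX17 (0.76), which deliver copper to cytochrome oxidase, and ATOX1 (0.58), the copper chaperone of the secretory pathway. Copper genes had a median of 0.36. Over all genes tested, 22.6% were called higher and 27.9% lower.

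The other classical inducers of metallothioneins were followed through lists of their response genes. These counts stand beside 22.6% of all genes called higher and 27.9% called lower, with a median of -0.04 over all genes. Of 8 glucocorticoid response genes tested 0 rose and 6 fell (median -0.31), led by KLF9 (-0.66) and the kinase SGK1 (-0.65), with the glucocorticoid receptor NR3C1 at -0.38. Of 11 heat shock genes 8 rose and 0 fell (median 0.76), led by the chaperone genes HSPA8 (0.99), HSPE1 (0.96) and HSPH1 (0.88). Of 8 antioxidant response genes 4 rose and 1 fell (median 0.30), with HMOX1, heme oxygenase, at 2.07, the quinone reductase NQO1 at 1.26 and SRXN1 at 0.77. Of 7 early response genes 4 rose and 0 fell (median 0.35), the largest being IER2 (0.79), JUNB (0.53) and FOS (0.48).

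**Figure D2:**
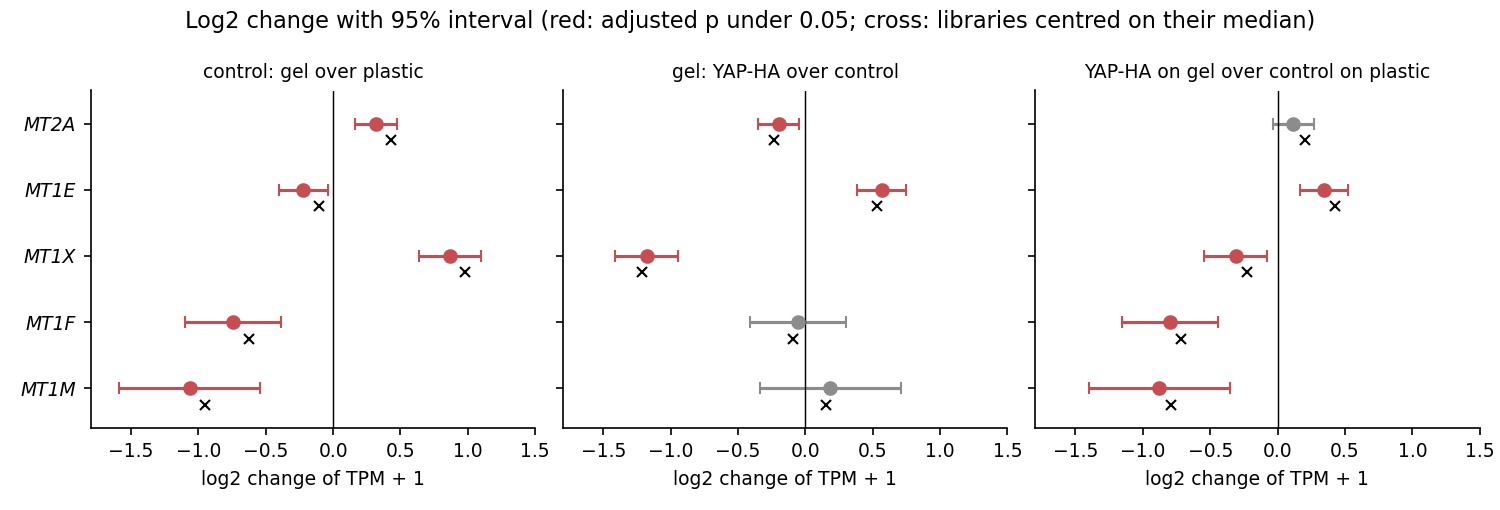
Log2 change of TPM + 1 (x axis) of 5 metallothioneins in 3 comparisons of ARPE-19 cells, as the estimate with its 95% interval from limma (n = 3 libraries per group), in red where the adjusted p is under 0.05, with crosses for the change after each library was centred on its median. MT1X is at 0.87 for gel over plastic and -1.18 for YAP-HA over control on gel, and MT1E at -0.22 and 0.57, while MT1F and MT1M lie below 0 in both comparisons with plastic.

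YAP-HA cells on gel were compared with control cells on gel to ask what added YAP does on a soft substrate. This comparison shares its gel libraries with the previous one, so the 2 are not independent. MT1X fell and MT1E rose in YAP-HA cells, with no overlap of libraries in either gene. The share of all genes without overlap was not counted here either. MT1X had 78.3, 88.1 and 69.7 TPM in YAP-HA cells, against 155, 188 and 195 TPM in control cells, and fell by 1.18 on the log2 scale (SE 0.10, limma adjusted p 1.3e-05). MT1E had 534, 529.6 and 463 TPM in YAP-HA cells, against 305, 367 and 359.8 TPM in control cells, a log2 change of 0.57 (SE 0.081, limma adjusted p 0.00029). The background was 48.4% of genes called, and 95.7% of genes moved less than MT1X and 76.8% less than MT1E.

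MT2A had 6032, 5959 and 5674 TPM in YAP-HA cells, against 6180.2, 7093 and 7032 TPM in control cells. Its log2 change of -0.20 (limma adjusted p 0.037) was lost in 8 of 12 alternatives, among them those without gel replicate 2 or 3 or any 1 of the 3 YAP-HA libraries, with adjusted p from 0.064 to 0.13. MT1F and MT1M overlapped between the groups. MT1F had 18.6, 20.8 and 15.1 TPM in YAP-HA cells, against 15.8, 24.1 and 17.4 TPM in control cells, with a log2 change of -0.06 (95% interval -0.41 to 0.30, limma adjusted p 0.79). MT1M had 2.75, 1.4 and 0.89 TPM in YAP-HA cells, against 1.51, 1.11 and 1.18 TPM in control cells, with a log2 change of 0.19 (95% interval -0.34 to 0.71, limma adjusted p 0.54). The intervals do not exclude changes of the size seen for MT1E in MT1M.

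The balance between MT1E and MT1X had its largest difference in this comparison. Both genes moved in opposite directions without overlap, so the separation of their ratio follows from that and is no separate evidence. MT1E over MT1X was 6.82, 6.01 and 6.64 in YAP-HA cells, against 1.97, 1.95 and 1.84 in control cells on gel, a difference of 1.76 on the log2 scale with no overlap (exact two-sided permutation p 0.1, the smallest possible). MT2A over MT1X was 77.1, 67.6 and 81.4 in YAP-HA cells, against 39.9, 37.8 and 36.0 in control cells on gel, also without overlap and with the same p of 0.1. MT1X was thus lower relative to both relatives in YAP-HA cells.

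In the surrounding genes, SLC30A1 fell by 0.45 on the log2 scale (limma adjusted p 0.0032) and SLC30A5 by 0.38, the 2 of 6 zinc exporters called, while MTF1 had a log2 change of 0.20 that did not pass (limma adjusted p 0.25). Of 11 zinc importers 1 rose, SLC39A14 (0.44), and 6 fell, led by SLC39A3 (-0.54) and SLC39A8 (-0.50). Of 11 copper genes 1 rose and 5 fell, led by SCO2 (-0.97), SLC31A2 (-0.86) and ATOX1 (-0.72). The background of calls was 24.5% higher and 23.9% lower, and the list medians were -0.22 for zinc exporters, -0.29 for zinc importers and -0.27 for copper genes, beside 0.01 over all genes.

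Among response genes to other inducers, 1 of 8 antioxidant genes rose and 3 fell, with HMOX1 at -3.05, NQO1 at -1.56 and TXNRD1 (thioredoxin reductase) at 0.70. Glucocorticoid response genes went both ways, with 3 rising and 3 falling of 8, led by ERRFI1 (1.18), TSC22D3 (-0.96) and DUSP1 (0.49). Of 11 heat shock genes 1 rose and 4 fell, led by HSPB1 (-0.84), HSPA1A (-0.63) and HSPD1 (0.41). Of 7 early response genes 0 rose and 3 fell, namely JUNB (-2.84), IER2 (-1.12) and JUN (-0.27). All of these counts stand beside 24.5% of all genes called higher and 23.9% called lower.

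YAP-HA cells on gel were also set against control cells on plastic, a comparison that differs in both substrate and YAP and shares libraries with both others. MT1F, MT1M and MT1X were lower and MT1E was higher in YAP-HA cells, at a background of 34.4% of genes called (14.2% higher and 20.2% lower). MT1F had 18.6, 20.8 and 15.1 TPM in YAP-HA cells, against 28.8, 36.3 and 31.6 TPM on plastic, and fell by 0.80 on the log2 scale (limma adjusted p 0.0037). MT1M was at 1.68 ± 0.961 TPM in YAP-HA cells and 3.78 ± 0.871 TPM on plastic (SD, n = 3 each) and fell by 0.88, a call lost without plastic replicate 2 or YAP-HA replicate 2 or 3, at limma adjusted p of 0.060, 0.052 and 0.0505. MT1E was at 509 ± 39.8 TPM in YAP-HA cells and 399 ± 10.2 TPM on plastic (SD, n = 3 each) and rose by 0.35 on the log2 scale (limma adjusted p 0.0084).

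MT1X had 78.3, 88.1 and 69.7 TPM in YAP-HA cells, against 101, 91.2 and 101 TPM on plastic. Its log2 change of -0.31 (limma adjusted p 0.042) was lost in 7 of 12 alternatives, with adjusted p of 0.095 to 0.14 without plastic replicate 1 or 3 or YAP-HA replicate 1 or 3. MT2A did not pass, at 5888 ± 189 TPM in YAP-HA cells and 5432 ± 341 TPM on plastic (SD, n = 3 each), with a log2 change of 0.12 (95% interval -0.04 to 0.27, limma adjusted p 0.22). MT1E over MT1X was 6.82, 6.01 and 6.64 in YAP-HA cells, against 3.95, 4.50 and 3.88 on plastic, without overlap (exact two-sided permutation p 0.1, the smallest possible). This too follows from the opposite moves of both genes, neither of which overlapped. Here as well, how many of all genes did not overlap was not counted. Centring added 0.08 to every log2 change here and moved the share of higher calls to 56.2%, against 41.3% with TPM as deposited.

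Zinc genes moved little in this comparison, with 0 of 6 exporters called and 3 of 11 importers lower, SLC39A6 (-0.46), SLC39A10 (-0.40) and SLC39A13 (-0.23). For this and the lists below, 14.2% of all genes were called higher and 20.2% lower. SLC30A1 was at -0.18 (limma adjusted p 0.18) and MTF1 at -0.07 (limma adjusted p 0.71). Copper genes had 2 higher and 1 lower of 11, namely SLC31A2 (-0.51), SCO1 (0.41) and SOD1 (0.21). Heat shock genes had 6 higher and 1 lower of 11, led by HSPA8 (1.12), HSPD1 (0.91) and HSPH1 (0.84). Glucocorticoid response genes had 2 higher and 3 lower of 8, led by SGK1 (-1.01), KLF9 (-0.96) and ERRFI1 (0.84). Antioxidant genes had 3 higher and 2 lower of 8, led by HMOX1 (-0.99), TXNRD1 (0.40) and SRXN1 (0.36), and early response genes 1 higher and 2 lower of 7, namely JUNB (-2.30), ATF3 (0.36) and IER2 (-0.33).

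Across the 9 ARPE-19 libraries, MT2A and MT1X varied together (Pearson r 0.74), as did MT1F and MT1M (0.81), while MT1X and MT1E varied in opposite directions (-0.77). These values describe 9 libraries that share 3 groups and are not independent of the comparisons above. The genes most like the summed metallothionein level were NSFL1C (r 0.98), ERP29 (0.98), PSMB3 (0.97), RTRAF (0.97) and SF3B6 (0.96), out of 8386 genes with a mean of at least 10 TPM over the 9 libraries.

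In the eye cups, TRULI-treated old mice were compared with untreated old mice, in vivo and in a tissue that holds choroid and sclera beside the RPE. None of the 3 mouse members passed the test. Mt1, the most abundant, had 1626 and 1664 TPM in TRULI-treated mice, against 1628 and 1782 TPM in control mice, with a log2 change of -0.05 (95% interval -0.28 to 0.18, limma adjusted p 0.88). Mt2 had 596 and 593 TPM in TRULI-treated mice, against 696 and 777 TPM in control mice, and Mt3 had 94.2 and 59.3 TPM in TRULI-treated mice, against 117 and 96.7 TPM in control mice. Both TRULI libraries were below both control libraries in Mt2 and in Mt3. Such separation of 2 libraries from 2 cannot reach an exact two-sided permutation p under 0.333, and how many of all genes separated this way was not counted. Mt2 had a log2 change of -0.31 (95% interval -0.56 to -0.06, limma unadjusted p 0.025, adjusted p 0.36) and Mt3 one of -0.50 (95% interval -1.11 to 0.11, limma adjusted p 0.50). Mt4 was listed at 0.

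Only 8 of 15132 genes (0.0529%) were called by limma in the eye cups, 0.0198% higher and 0.033% lower, while 1810 had an unadjusted p under 0.05. The metal regulator Mtf1 had a log2 change of -0.50 that did not pass, and 0 members of the zinc, copper, glucocorticoid, heat shock, antioxidant or early response lists were called. Mt1 over Mt2 was 2.73 and 2.81 in TRULI-treated mice, against 2.34 and 2.29 in control mice (exact two-sided permutation p 0.333, the smallest that 2 against 2 allow). Mt1 over Mt3 overlapped, at 17.3 and 28.04 in TRULI-treated mice, against 14.0 and 18.4 in control mice (exact permutation p 0.667).

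**Figure D3:**
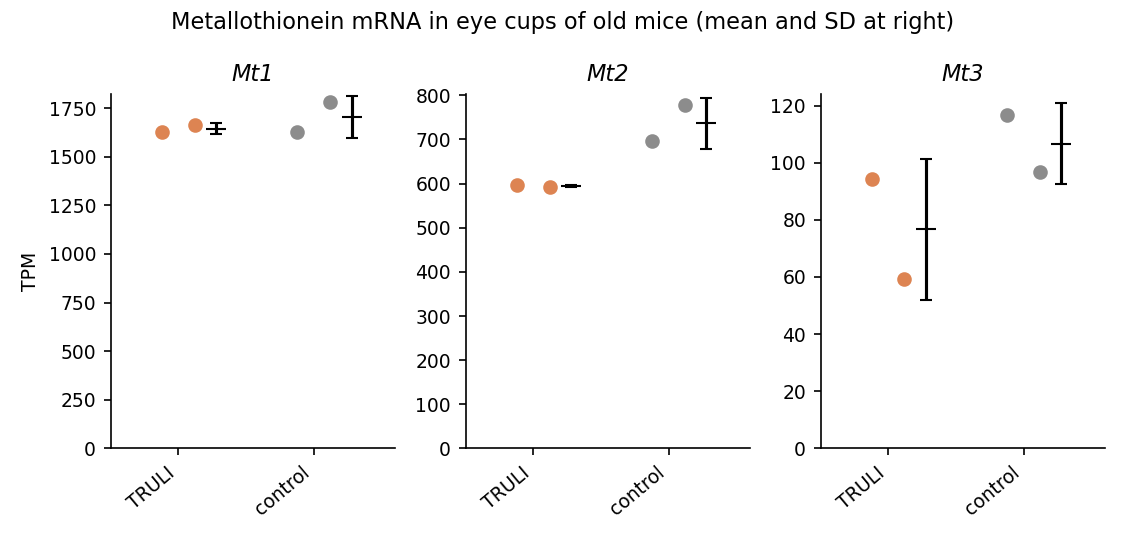
TPM (y axis, linear, from 0) of Mt1, Mt2 and Mt3 in eye cups of old mice, 1 point per library, with TRULI-treated mice left of control mice and the mean and SD beside each group (n = 2). Mt2 lies at 593 to 596 TPM in TRULI-treated mice and at 696 to 777 TPM in control mice, and Mt1 overlaps between the groups.

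Summed marker levels of cell types in the eye cups are given beside these values. The summed TPM of RPE markers was 23834 and 23042 in TRULI-treated mice, against 19816 and 19608 in control mice, and that of macrophage markers was 893 and 1109 in TRULI-treated mice, against 1768 and 1781 in control mice. T cell markers summed to 15.2 and 18.0 TPM in TRULI-treated mice, against 56.6 and 66.9 TPM in control mice. Melanocyte markers were at 4865 and 4485 TPM in TRULI-treated mice, against 3254 and 3507 TPM in control mice, and mural cell markers at 535 and 849 TPM in TRULI-treated mice, against 294 and 355 TPM in control mice. Muller glia (retinal glia) markers were at 418 and 523 TPM in TRULI-treated mice, against 566 and 609 TPM in control mice. Endothelial markers were at 375 and 446.8 TPM in TRULI-treated mice, against 463 and 447.2 TPM in control mice. None of these sums overlapped between the groups, a separation that 2 libraries against 2 can also give by chance. Photoreceptor markers overlapped, at 439 and 741 TPM in TRULI-treated mice, against 1464 and 732 TPM in control mice, as did fibroblast markers, at 2064 and 2701 TPM in TRULI-treated mice, against 2016 and 2363 TPM in control mice. Schwann cell, B cell and muscle markers overlapped as well. No gene of any of these lists passed the test. Of the B cell markers 0 entered it and 1 was at 0, and no other marker was at 0. The part of these cell types in the lower Mt2 and Mt3 values was not tested. In such bulk tissue, fewer cells of a type and less RNA per cell cannot be told apart.

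The scRNA-seq libraries place the 3 mouse members in cell types. Cells were assigned by marker shares: RPE cells had at least 4% of their unique molecular identifiers (UMIs, each marking 1 captured molecule) in Mitf, Rlbp1, Rpe65, Trpm3, Ttr and Tyr, and melanocytes had at least 1.5% in Pmel, Mlana, Tyrp1 and Dct. The old library kept 15198 of 17835 barcodes and the young one 15667 of 16463, with medians of 3699 and 4586 UMIs per cell, and 381 barcodes occurred in both. This gave 5245 old and 1825 young RPE cells and 43 old and 1188 young melanocytes. Another 207 old and 133 young cells passed more than 1 gate and were left out. Rpe65, a gate gene, stood at 5730 CPM (UMIs of the gene scaled to a fixed total per class) in old and 6023 CPM in young RPE cells. Ttr, the most abundant gate gene, stood at 73182 and 74820 CPM. These levels follow in part from the gate. Best1, an RPE chloride channel outside the gate, was at only 1.04 CPM in old and 0.46 CPM in young RPE cells. In the other classes it was at 0 to 5.87 CPM, so that Best1 did not set RPE cells apart. With 1 library per age no test across samples was possible, and the exact 95% intervals given cover counting error only.

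RPE cells had the highest level of every member. Mt1 took 11908 CPM (11876 to 11941) in old RPE cells, against 10076 CPM (10037 to 10115) in young RPE cells, so that more than 1% of all RPE molecules were Mt1. Mt3 had 2854 CPM in old and 2774 CPM in young RPE cells, and Mt2 had 974 CPM in old and 849 CPM in young RPE cells. Of the molecules of the family in RPE cells, Mt1 made up 75.7% in old and 73.6% in young, Mt3 18.1% and 20.3%, and Mt2 6.19% and 6.20%.

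The old over young ratio in RPE cells was small for all 3 members. It was 0.24 on the log2 scale for Mt1 (0.23 to 0.25), 0.20 for Mt2 (0.18 to 0.22) and 0.04 for Mt3 (0.03 to 0.05), beside a median of -0.04 over 14662 genes. Of those genes, 84.9% had a smaller ratio than Mt1, 82.9% than Mt2 and 66.5% than Mt3. No member passed a ratio of 1.5-fold, which 12.8% of those genes did, 7.67% higher and 5.16% lower in old cells. Old RPE cells were shallower, with a median of 4157 UMIs, against 11356 UMIs in young RPE cells. Within 4 ranges of depth the ratio of Mt1 was 0.27, 0.28, 0.31 and 0.21 from the shallowest to the deepest cells, that of Mt2 0.32, 0.40, 0.22 and 0.13, and that of Mt3 0.19, 0.08, 0.16 and 0.03. All 12 values were above 0, but they come from cells of the same 1 old and 1 young library and are not replicates. Those ranges were chosen after seeing the data, and no median over all genes was taken within them.

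Per cell, thinning to 1000 UMIs left 4027 old and 1453 young RPE cells. In these the median count of Mt1 was 11 in old and 9 in young cells, with the middle 50% from 8 to 16 in old and from 6 to 13 in young cells. The median of Mt3 was 3 in old and 2 in young cells. Mt3 was detected in 89.8% of old and 87.7% of young RPE cells after thinning (94.0% and 91.3% before), against 27.5% of old and 23.8% of young T cells (59.4% and 42.9% before, at medians of 2892 and 3812 UMIs). Over RPE cells, Mt1 correlated weakly with Mt2 (Pearson r 0.28 in old and 0.27 in young) and with Mt3 (0.25 and 0.28), which describes cells of 1 library at equal depth.

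Outside the RPE, the order of Mt1 in the old library was fibroblasts (6511 CPM), mural cells (5444), melanocytes (4345), macrophages (2333), B cells (2273), endothelial cells (2145) and T cells (1724). The intervals of macrophages, B cells and endothelial cells overlapped each other, and no other neighbours in this order overlapped. In the young library the order was melanocytes (3911 CPM), fibroblasts (3744), mural cells (3136), macrophages (2001), B cells (1455), endothelial cells (997) and T cells (724), with no overlap between neighbours. Both orders are of UMIs as counted, with nothing taken off for RPE transcripts found in these classes. Mt2 was at 570.3 CPM in old and 249 CPM in young fibroblasts, its highest level in the old library outside the RPE. These classes were gated by marker lists at shares set from the distribution of those shares, and held from 42 cells (young T and B cells) to 5874 cells (young fibroblasts).

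**Figure D4:**
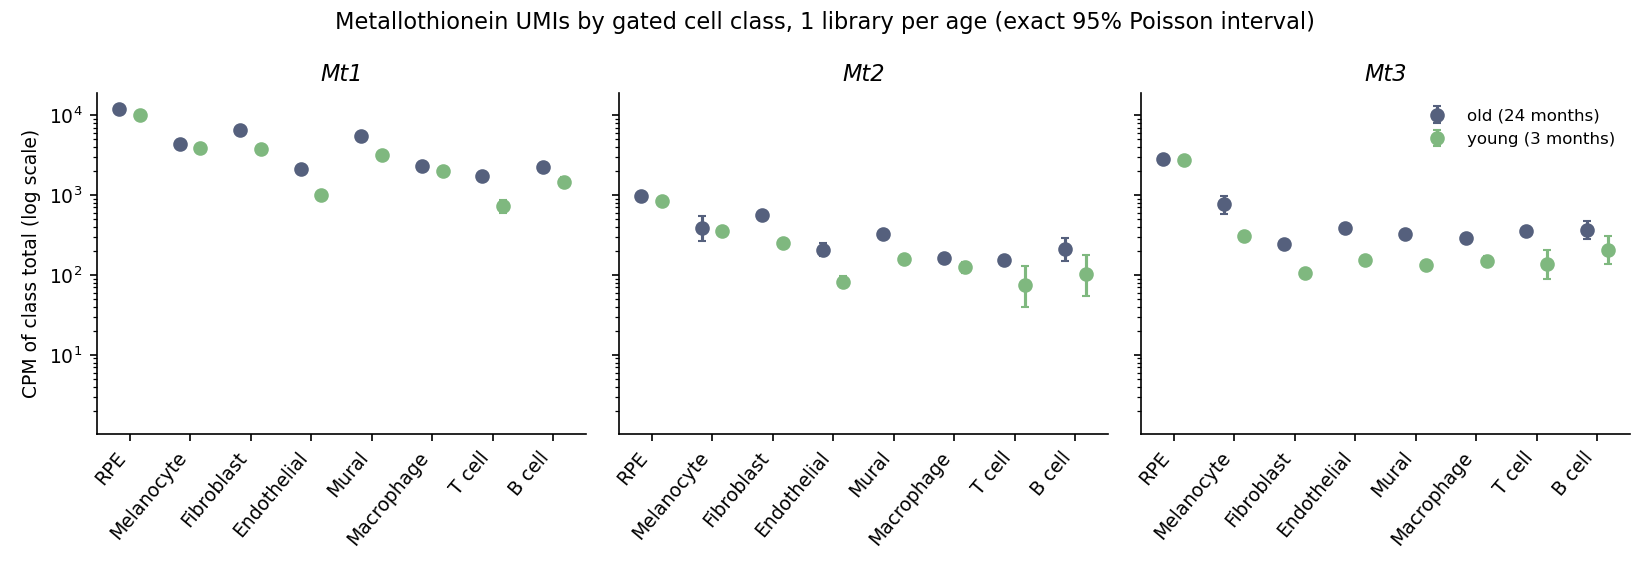
CPM (y axis, log scale) of Mt1, Mt2 and Mt3 in 8 gated cell classes (x axis), with the old library (24 months) left of the young library (3 months) in each class and bars for the exact 95% Poisson interval, from 1 library per age. Mt1 and Mt3 are highest in RPE cells, at 11908 and 2854 CPM in old and 10076 and 2774 CPM in young cells.

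Several classes other than RPE had higher levels in the old library. In fibroblasts, which make the collagen matrix of choroid and sclera, Mt1 was at 6511 CPM in old and 3744 CPM in young cells (log2 ratio 0.80, 0.79 to 0.81), and Mt2 at 570.3 CPM in old and 249 CPM in young cells (1.19, 1.15 to 1.24). In mural cells, the contractile cells of vessel walls, Mt1 was at 5444 CPM in old and 3136 CPM in young cells (0.80) and Mt2 at 326 and 156 CPM (1.06). In endothelial cells Mt1 was at 2145 CPM in old and 997 CPM in young cells (1.11). All 3 members were past 1.5-fold higher in fibroblasts, where 9.46% of genes were past it higher and 9.68% lower. The same held in endothelial cells (9.93% of genes higher and 12.8% lower), in mural cells (8.4% and 11.8%), in T cells (18.4% and 23.0%) and in B cells (13.0% and 21.5%). Past 1.5-fold in either direction were 19.1% of genes in fibroblasts, 22.8% in endothelial cells, 20.2% in mural cells, 41.4% in T cells and 34.5% in B cells. All these ratios are of UMIs as counted. Nothing was taken off for RPE transcripts found in these classes, which are given below.

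In melanocytes, the pigment cells of the choroid, Mt1 was at 4345 CPM in old and 3911 CPM in young cells (log2 ratio 0.15, -0.01 to 0.31) and Mt2 at 387 and 351 CPM (0.14, -0.43 to 0.66). Mt3 was at 762 CPM in old and 306 CPM in young melanocytes (1.31, 0.91 to 1.69). It was the 1 member of 3 past 1.5-fold, in a class where 51.9% of 9743 genes were (28.2% higher and 23.6% lower). The old class held 43 cells with 348 Mt1 UMIs in all. In macrophages Mt3 was the 1 member past 1.5-fold (0.95, at a background of 22.9%, or 7.45% higher and 15.5% lower), with Mt1 at 0.22 and Mt2 at 0.38.

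Transcripts of the 6 RPE gate genes were found in every class, at higher levels in the old library outside the RPE. These genes stood at 83082 CPM in old and 85782 CPM in young RPE cells. In fibroblasts they were at 6397 CPM in old and 3185 CPM in young cells, in endothelial cells at 9581 and 4839 CPM, in T cells at 9719 and 4113 CPM and in melanocytes at 16368 and 10398 CPM. Melanocytes also make Mitf and Tyr themselves, and Ttr and Rpe65 took 85.7% of the 6 genes' UMIs in old and 78.2% in young melanocytes, against 94.98% in old and 94.2% in young RPE cells. Mt3 varied less than Mt1 relative to these genes. Per 1000 UMIs of the 6 genes there were 34.4 UMIs of Mt3 in old and 32.3 in young RPE cells, and 28.5 to 46.5 (the highest in melanocytes) in old and 29.4 to 34.4 in young cells of the 7 other classes. At the ratio of RPE cells of the same library, the RPE transcripts of a class would come with 73.8% to 121% of its Mt3 UMIs. The share was 91.0% in old and 96.6% in young fibroblasts, 86.0% and 102% in endothelial cells and 94.8% and 94.0% in mural cells. In T cells it was 94.5% in old and 96.5% in young cells, and in B cells 121% and 110%.

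Mt1 varied more. Per 1000 UMIs of the 6 genes it had 143 UMIs in old and 117 in young RPE cells, but 1018 and 1175 in fibroblasts, 612 and 807 in mural cells, 321 and 419 in macrophages and 265 and 376 in melanocytes. T cells, at 177 and 176, were closest to RPE cells. Taken at the RPE ratio, RPE transcripts would come with 14.1% of Mt1 UMIs in old and 9.99% in young fibroblasts, 23.4% and 14.6% in mural cells, 54.0% and 31.2% in melanocytes (48.7% and 25.9% by Ttr and Rpe65 alone) and 80.8% and 66.7% in T cells.

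After these UMIs were taken off, a step added after seeing the data, the log2 ratio of old over young was 0.73 for Mt1 and 1.19 for Mt2 in fibroblasts, 0.64 and 0.91 in mural cells and 0.85 and 1.45 in endothelial cells. It was below 0 in melanocytes (-0.43 for Mt1 and -0.35 for Mt2) and in macrophages (-0.16 and -0.02). For Mt1 it was also below 0 in B cells (-0.51, against 0.64 before), where Mt2 was at 0.87. No interval was calculated for the ratios after this step. Some rest on few UMIs, as B cells held 36 old and 13 young UMIs of Mt2 before it. In T cells the ratio was 0.46 and 0.24, against 1.25 and 1.04 before. Mt1 in T and B cells and Mt2 in T cells were thus no longer past 1.5-fold higher. Mt3 was given no such ratio. By Ttr and Rpe65 alone the log2 ratio was -0.38 for Mt1 and -0.31 for Mt2 in melanocytes. Its direction was the same as with the 6 genes in each class for both members. The order of Mt1 levels turned as well: young fibroblasts, at 3369.5 CPM left, stood above young melanocytes (2690), and old endothelial cells (772) above old B cells (441). In fibroblasts the ratio of Mt1 was thus 0.73 without these UMIs, against 0.80 with them, and in mural cells 0.64, against 0.80.

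**Figure D5:**
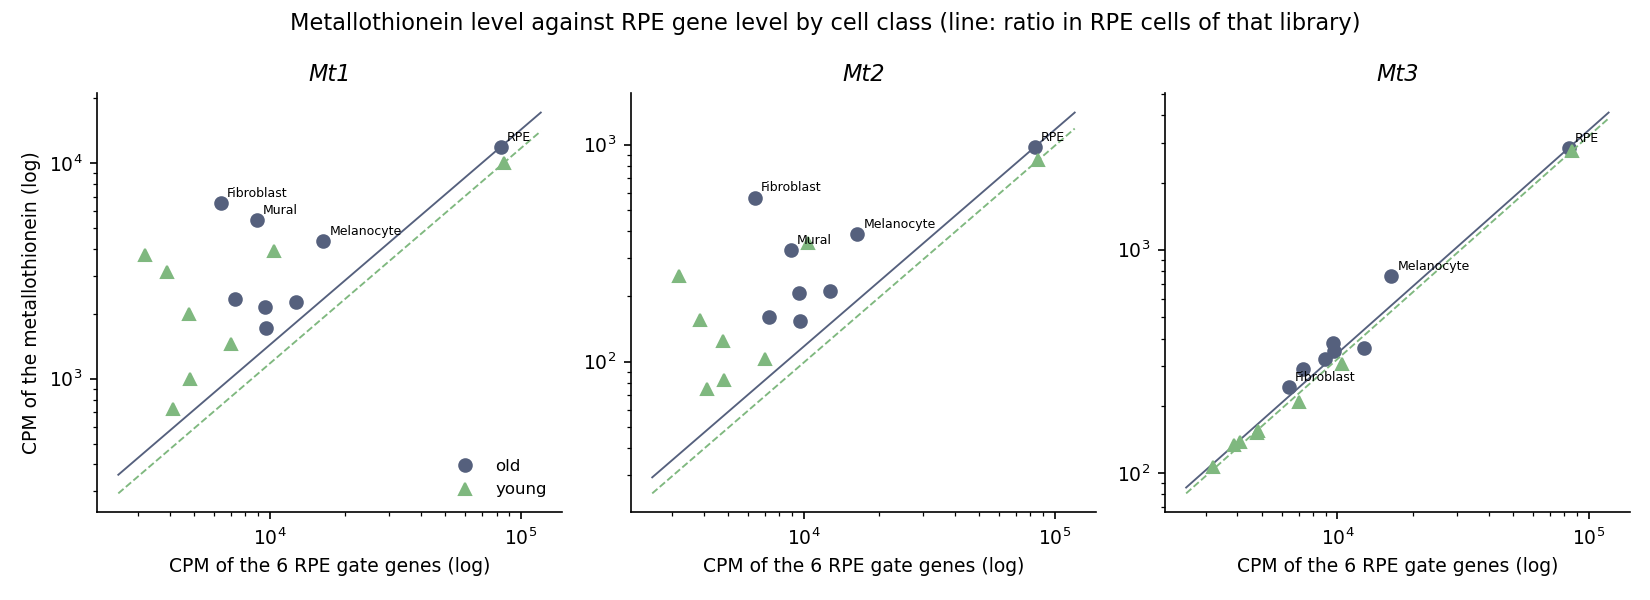
CPM of Mt1, Mt2 and Mt3 (y axes, log scale) against the summed CPM of the 6 RPE gate genes (x axis, log scale) in 8 cell classes of the old library (circles) and the young library (triangles), with a solid line for the ratio in old and a dashed line for that in young RPE cells. Mt3 lies near the lines in every class, while Mt1 in fibroblasts and mural cells lies several times above them.

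Metal and stress response genes were compared between old and young RPE cells in the same way. Of the lists for zinc exporters (6 genes compared), zinc importers (13), copper (11), glucocorticoid (10), heat shock (11), antioxidant (8) and early response genes (7), 0 genes were past 1.5-fold higher in old RPE cells, beside 7.67% of all genes, and 4 of 66 (6.06%) were past it lower, close to the 5.16% of all genes. These 4 were the copper pump gene Atp7b (log2 ratio -0.94), the glucocorticoid response gene Crispld2 (-0.85) and the heat shock genes Hspa1b (-1.003) and Hspa1a (-0.81). Mtf1 was at -0.09 and Slc30a1 at -0.10 (-0.25 to 0.06). Mt4 had 1 UMI in all kept cells of both libraries together.

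The genes most like Mt3 over the 16 combinations of class and age, out of 9606 with a mean of at least 10 CPM, were Ttr (Pearson r 0.99), Acsl6 (0.99), Rgr (0.99), Cltrn (0.99) and Slc6a13 (0.98). Ttr, the thyroxine and retinol carrier transthyretin, and Rgr, an opsin of the RPE, are typical of RPE cells. Ttr is also the most abundant gate gene, so it helped to define the RPE class. Outside the RPE, Mt3 lay near its RPE ratio to the gate genes in most classes. High correlations of Mt3 with RPE transcripts follow in part from this, so the list is no separate evidence on Mt3. For Mt1 plus Mt2 the most similar genes were Smim1 (0.94), Fads2 (0.93), Smdt1 (0.92), Wls (0.91) and Tspan3 (0.91). These are descriptions over points that share 2 libraries.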

How the data were processed

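Polyadenylated RNA of ARPE-19 cells and mouse eye cups was made into stranded libraries, and the authors deposited the bulk values as TPM, which keep no depth, so the depth of these libraries is unknown. The submitters' processing notes list STAR 2.7.3a and 2.7.10b, RSEM, Cell Ranger 6.0.1 and the builds GRCh38, GRCm39 and mm10. For scRNA-seq (a 5′ kit with UMIs) the authors deposited raw UMI counts per barcode. All per-sample columns were mapped, with 0 left over.

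TPM were analysed as log2(TPM + 1) with limma 3.58.1 in R 4.3.3, using an intensity trend without robust weighting. P-values were adjusted by Benjamini-Hochberg over every gene that entered, and 0.05 was the threshold. To enter, a gene had to reach 1 TPM in 3 or more of the 9 ARPE-19 or 2 or more of the 4 mouse libraries. The 3 ARPE-19 groups were fitted together. This scale understates fold changes of low genes. Cells with fewer than 200 genes, with over 10% mitochondrial UMIs or with any hemoglobin UMI were removed, leaving 82897938 old and 89817876 young UMIs. Fibroblasts were gated at 1% of UMIs in their markers, endothelial cells and macrophages at 0.5%, mural cells at 1.5% and T and B cells at 0.2%. Doublets were not called, but cells past more than 1 gate were left out. A gene counted in the single-cell background had at least 20 UMIs over both libraries. CPM have exact Poisson, ratios exact conditional and shares exact binomial 95% intervals (Python 3.11.15, scipy 1.17.1). Code was tested on simulated data.

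All members are named with their values, and in each list the 3 genes with the largest change past the threshold. The members and lists were chosen with earlier results of these data known. Alternatives were a pseudocount of 0.1, no filter, median centring, limma's robust option, a replicate block, only the groups compared, leaving out each library, other gates (RPE 2% or 8%, melanocytes 1% or 3%), hemoglobin cells kept, cells past several gates kept, shared barcodes left out and thinning to 1000 UMIs.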

Additional observations from a re-analysis of the deposited data

How the results depend on the processing

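Of 18 results for single metallothioneins in the TPM tables, 10 stayed on the same side of the threshold and in the same direction under every alternative; over 207 alternatives of single genes, 28 lost the call and 4 turned their sign. The turned signs were all of changes that had not passed: for YAP-HA over control on gel, MT1F was at 0.11 without gel replicate 2 and 0.062 without YAP-HA replicate 3 (range -0.18 to 0.11 with a library left out) and MT1M at -0.086 without YAP-HA replicate 1 (range -0.086 to 0.41), and for TRULI over control, Mt1 was at 0.014 without control replicate 2 (range -0.12 to 0.014). For gel over plastic, 5 metallothioneins were called, 3 without the filter, 4 with the replicate block and 4 to 5 when 1 library was left out. For YAP-HA over control on gel the number was 3, with the replicate block 3, and 2 to 3 with a library left out. For YAP-HA on gel over plastic it was 4, 2 without the filter, 3 with the replicate block and 2 to 3 with a library left out. Same-numbered libraries showed no clear shared deviation from their group means in any comparison (r from -0.125 to 0.094). With 2 or 3 libraries a group, this cannot show whether the libraries were paired. The block ended the calls of MT1E for gel over plastic and MT1X for YAP-HA over plastic. In the eye cups 8 genes were called, 0 with a pseudocount of 0.1, 0 without the filter, 0 with the replicate block and 1 to 13 with a library left out, and 0 metallothioneins under any of these.

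In RPE cells the old over young log2 ratio was 0.26 for Mt1 with lower gates. With higher gates it was 0.19, 0.16 and 0.0051 for Mt1, Mt2 and Mt3. It was 0.23 for Mt1 with hemoglobin cells kept, and 0.26, 0.24 and 0.12 for the 3 genes after thinning. By depth range it was 0.27, 0.28, 0.31 and 0.21 for Mt1, 0.32, 0.40 and 0.13 for Mt2 and 0.19, 0.084 and 0.16 for Mt3 where it moved beyond its counting interval. In melanocytes Mt1 and Mt2 were at -0.22 and -0.28 with higher gates (13 old cells) and at -0.43 and -0.35 with UMIs at the RPE ratio taken off, and Mt3 at 1.80 with cells past several gates kept. Taking those UMIs off also gave -0.16 and -0.021 for Mt1 and Mt2 in macrophages and -0.51 for Mt1 in B cells. No counting interval was calculated for values after this step. By Ttr and Rpe65 alone, also chosen after seeing the data, these values were -0.38 and -0.31 in melanocytes, -0.14 and -0.0041 in macrophages and -0.48 in B cells. The causes of these shifts were not tested.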

Other observations

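The proportions of the 3 mouse members differed between the assays. Mt1 over Mt2 was 2.29 to 2.81 in TPM of the 4 eye cups, but 12.2 in old and 11.9 in young RPE cells by UMIs, and 9.69 to 20.1 over all classes and ages. Mt1 over Mt3 was 14.0 to 28.04 in eye cups, against 4.17 in old and 3.63 in young RPE cells and 27.0 in old and 35.1 in young fibroblasts. The mice, the tissue preparation, the kit and the unit all differ between these values, so their parts cannot be told apart.

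In ARPE-19 cells, the genes closest to MT1X over the 9 libraries were SELENOW, PPIB, FOXD1 and ATOX1 at Pearson r of 0.99 each and TNFRSF12A at 0.99. ATOX1 carries copper to the secretory pathway. For MT1E the nearest was SLC27A5 (0.97) and for MT1F SAP30-DT (0.93), over the same 8386 genes.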
